A study of Mus musculus with 72 samples.

Results

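The reporters described here are the 884 integrations that the deposited table places on mouse chromosome 8, out of 17857 in the whole series (4.95%). Members were chosen by chromosome alone, from all 6 cell pools, and no measured level entered the choice. The pools contributed 117 (mPGK-A), 164 (mPGK-B), 142 (mPGK-C), 165 (mPGK-D), 153 (mPGK-E) and 143 (mPGK-F) integrations, or 4.29% to 5.64% of each pool. The reporters lay between positions 3221715 and 131118628 of mm9, a span of 127.9 Mb. Their density was 6.91 per Mb, against 6.99 per Mb in the rest of the genome, and it ranked 14th of 21 chromosomes.

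All pools shared 1 background: mouse embryonic stem cells of the line EBRTcH3, which make a tetracycline-controlled transactivator from their own ROSA26 promoter, grown with leukemia inhibitory factor and inhibitors of MEK and GSK-3. Each cell carried piggyBac transposons with a reporter under the promoter of mouse phosphoglycerate kinase (mPGK), a housekeeping gene, and a random barcode that names the integration. Cells sorted for low eGFP were grown for 5 days, divided into small pools for 7 days, and each pool was split into 2 cultures for 7 further days. A pool is therefore a separate set of integrations, whereas its 2 cultures are technical replicates, and a p-value within a pool measures only the spread between these cultures. No untreated or reporter-free group entered, so each level stands against the median of its pool, and chromosome 8 stands against the rest of the genome.

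TRIP, the assay used, reads many identical reporters in parallel: the barcode share in RNA over its share in DNA gives the output per copy. An identical promoter can give very different output at different places, which is known as a position effect. Chromosomes are divided into stretches of open chromatin, generally early replicating and gene-rich, and stretches of compact chromatin, many of them at the nuclear lamina, and piggyBac is known to favour open chromatin. Mouse chromosomes have the centromere at one end, so low coordinates lie near it.

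The following barcodes name the reporters on which the contrasts along the chromosome turn, with the pool, the position and the strand of each. The first 4 lay within 42.6 kb of each other and were all high, and the fifth was the highest reporter of the chromosome. The last 4 form the closest-matched and the most divergent pairs of different pools within 1 kb. The letters are labels without function, so none is capitalised.
mPGK-B, 44374478, plus: taagagaaaacgggtc
mPGK-F, 44410412, minus: ggacagttggtcagtg
mPGK-E, 44416503, plus: aaatatgggttgagag
mPGK-B, 44417111, minus: ttaatagcgccgcata
mPGK-A, 91569147, minus: tgctggttatgcccgt
mPGK-F, 80489004, minus, the lowest level: ctacatccacattaat
mPGK-C, 62684608, plus, no RNA read: cagaacagagtgtaag
mPGK-B, 109416615, minus, closest pair: cgttccgacgcaccac
mPGK-D, 109416866, minus, closest pair: aacctagttcctgctt
mPGK-C, 63793155, minus, most divergent pair: atggaactttatagga
mPGK-F, 63793780, plus, most divergent pair: actaatgacaacggaag

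Across the listed barcodes, a pool and replicate held 3386477 to 3693449 DNA reads and 2880244 to 3508366 RNA reads. A chromosome 8 integration had 82 to 24749 DNA reads and 0 to 110025 RNA reads over both replicates. Reads of amplified barcodes are not independent molecules, so floors given below cover counting error only. Levels are log2 values relative to the median of the pool, so 0 is the median reporter. The error of a single replicate, taken from the differences between replicates, was 0.77 log2 units (SD). It was 0.37 for the 617 integrations whose RNA count reached 100 reads in both replicates and 1.26 for those with fewer. A mean of both replicates has a smaller error. Of the 884 barcodes, 36 were also listed in another pool, and no site was listed more than once.

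Output on chromosome 8 spanned a wide range around an ordinary average. The mean level was -0.14 with an SD of 2.47, against a mean of -0.19 and an SD of 2.42 in the rest of the genome. The interval from the 5th to the 95th percentile ran over 8.14 log2 units, a 282-fold range, from -4.57 to 3.57. More than 16-fold below their pool median were 61 integrations (6.90%, against 6.46% in the rest), and more than 16-fold above were 32 (3.62%, against 2.41%). No RNA read was found for 7 integrations (0.792%, against 1.04%).

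By pool, the chromosome 8 mean minus the mean of the rest was 0.13 (mPGK-A), 0.25 (mPGK-B), -0.06 (mPGK-C), 0.08 (mPGK-D), 0.03 (mPGK-E) and -0.11 (mPGK-F). The pools fell on both sides of 0, with a mean of 0.05 ± 0.13 (SD, n = 6), and an exact sign-flip permutation test over the pools gave p = 0.41 (two-sided; adjusted p = 0.57 over 7 comparisons; the smallest p that 6 pools allow is 0.031). The share over 16-fold above differed by 1.09 ± 1.55 percentage points and was higher on chromosome 8 in 4 of 6 pools (exact permutation p = 0.13; adjusted p = 0.44). It was 6.67% in mPGK-D and 4.27% in mPGK-B, against 2.97% and 2.03% in the rest of these pools, while the other four pools lay within 0.58 percentage points of the rest. The share over 16-fold below differed by 0.42 ± 2.19 percentage points (exact permutation p = 0.72) and the SD of the level by 0.03 ± 0.19 log2 units (exact permutation p = 0.75). None of these differences exceeded the spread between pools. At 8-fold in place of 16-fold, the share above differed by 1.80 ± 1.66 percentage points (adjusted p = 0.11, exact permutation test). Its unadjusted exact permutation p was the smallest possible, 0.031, so this share was higher on chromosome 8 in all 6 pools.

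Counts of RNA and DNA were compared barcode by barcode within each pool with edgeR's quasi-likelihood test. On chromosome 8, 330 of 884 integrations were called above their pool (37.3%), where 36.9% of all integrations of the series were. Called below were 302 (34.2%), where 33.7% of all integrations were. Both shares were near the background, and the remaining 252 were not called. Called integrations above averaged 2.24 and those below averaged -2.71, and all 632 had the same sign in both replicates. The calls were made from both replicates, so this likeness is no separate check. The shares called above lay between 34.0% (mPGK-E) and 40.2% (mPGK-B), and the shares called below between 30.8% (mPGK-A) and 36.6% (mPGK-C).

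**Figure D1:**
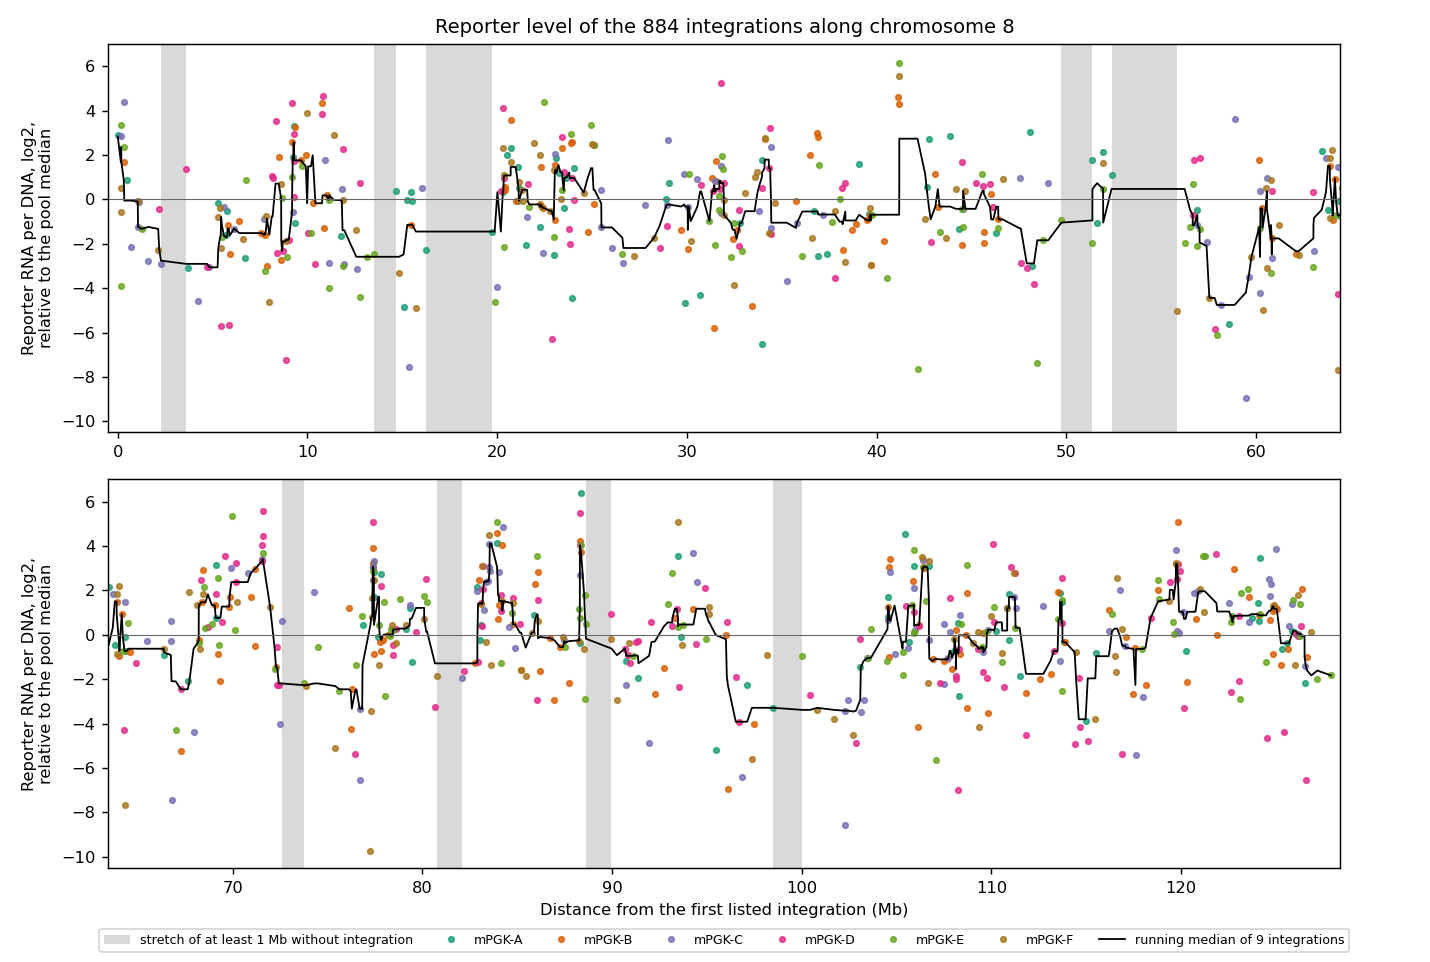
Level of each of the 884 reporters (log2, relative to the pool median; points coloured by pool) against the distance from the first listed integration in Mb, in 2 panels that follow each other along the chromosome. The line is the median of 9 consecutive integrations, and grey bars mark the 9 stretches of at least 1 Mb without integration. The very highest reporters stood in small clusters, and the longest unbroken run of low reporters (24 integrations) enclosed the last grey bar.

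Along the chromosome, stretches of high and of low output alternated. In stretches of 10 Mb, the mean level was lowest between 60000001 and 70000000, at -1.35 ± 2.59 (SD over 58 integrations). There, 10 integrations were over 16-fold below and none over 16-fold above. The mean level was highest between 80000001 and 90000000, at 0.93 ± 2.17 (SD over 106 integrations, the most of any such stretch). There, 8 were over 16-fold above and 1 over 16-fold below. The fewest integrations among complete stretches, 23 from 5 pools, lay between 50000001 and 60000000. The stretches were compared without a test.

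Windows of 2 Mb gave a test with pools as samples, fitted with limma over all 1106 windows of the genome that held at least 5 integrations from at least 3 pools. Of the 65 windows on the listed span, 54 were tested, 9 held too few integrations and 2 held none. Called above the genome were 6 windows (11.1% of those tested, against 8.05% over the genome), with 137 integrations in them, and called below were 6 (11.1%, against 9.76%), with 68 integrations. The median number of integrations was 20.5 in the high windows and 10.5 in the low ones. The high windows lay from 72000001 on, whereas the low ones were spread from 8000001 to 102000000.

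**Figure D2:**
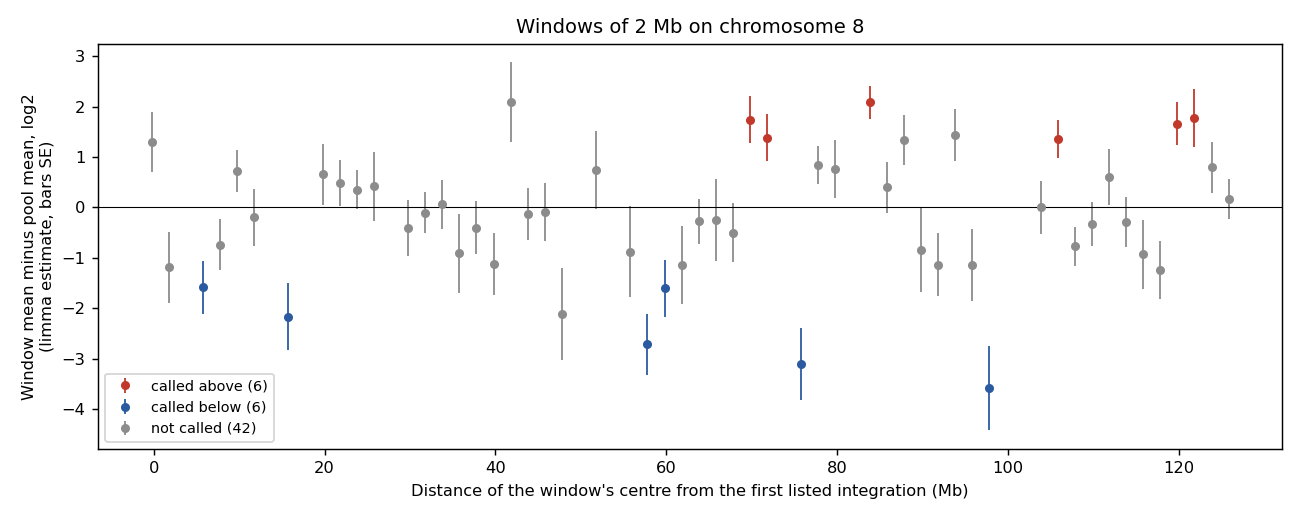
Difference of the 54 tested 2 Mb windows from the pool mean (log2, limma estimate; bars are SE) against the distance of the window's centre from the first listed integration in Mb. Red points are the 6 windows called above, blue points the 6 called below and grey points the 42 not called; red points range from 1.36 to 2.08 and blue points from -1.58 to -3.58.

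The strongest high window, 86000001 to 88000000, held 37 integrations, as many as the window starting at 80000001, which was not called; no other window held more. The pool means were 1.63 (mPGK-A), 2.28 (mPGK-B), 2.59 (mPGK-C), 1.28 (mPGK-D), 1.60 (mPGK-E) and 1.46 (mPGK-F). All 6 were above 0, and 32 of the 37 integrations lay above their pool median. limma gave a difference of 2.08 ± 0.33 (SE; 4.24-fold; adjusted p = 0.00012), and the call held under each of the 15 alternatives that gave it a value.

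A pair of adjoining high windows lay at 72000001 to 76000000. The first held 19 integrations from 6 pools, with pool means from 0.28 (mPGK-B) to 3.02 (mPGK-C), and differed by 1.74 ± 0.47 (limma, adjusted p = 0.0095). The second held 18 from 5 pools, with pool means from 0.69 (mPGK-B) to 1.76 (mPGK-D), and differed by 1.38 ± 0.47 (limma, adjusted p = 0.038). Inside it 11 integrations lay above and 7 at or below their pool median, since a sharp edge described further on runs through it. Without mPGK-D the adjusted p was 0.069 for the first and 0.28 for the second; the second also lost its call without mPGK-B, mPGK-C, mPGK-E or mPGK-F (adjusted p = 0.051 to 0.067).

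Another adjoining pair stood at 122000001 to 126000000. The first held 22 integrations and differed by 1.66 ± 0.42 (limma, adjusted p = 0.0067). Its pool means were -0.72 in mPGK-A, from 1 integration, and 1.17 to 2.65 in the other five pools. The second held 12 integrations from 5 pools with means from 0.53 (mPGK-D) to 2.13 (mPGK-E), and differed by 1.77 ± 0.57 (limma, adjusted p = 0.030). It lost its call without mPGK-B, mPGK-C, mPGK-E or mPGK-F (adjusted p = 0.052 to 0.15).

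The remaining high window, 108000001 to 110000000, held 29 integrations of 6 pools, with means from 0.42 (mPGK-B) to 2.60 (mPGK-A). It differed by 1.36 ± 0.38 (limma, adjusted p = 0.012), or by 1.14 with an adjusted p of 0.054 without mPGK-A. Just outside the threshold were the windows starting at 96000001 (1.43, adjusted p = 0.052), 90000001 (1.33, adjusted p = 0.059) and 44000001 (2.09, adjusted p = 0.063).

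Among the low windows, the one farthest from the genome was 100000001 to 102000000. Its 6 integrations gave pool means of -2.78 (mPGK-A), -4.01 (mPGK-B), -6.40 (mPGK-C) and -3.26 (mPGK-F), with none from the other two pools. All 6 were called below, at a median of 44.5 RNA reads, and limma gave -3.58 ± 0.84 (11.9-fold below; adjusted p = 0.0040). The window from 78000001 to 80000000 differed by -3.11 ± 0.71 (limma, adjusted p = 0.0033). Its 9 integrations had pool means from -1.82 (mPGK-B) to -5.36 (mPGK-D), and 1 of the 9 lay above its pool median. That from 60000001 to 62000000 differed by -2.71 ± 0.60 (limma, adjusted p = 0.0026), with 11 integrations and pool means from -2.00 (mPGK-D) to -4.44 (mPGK-F). These 3 windows kept their calls under all alternatives that gave them a value (12, 14 and 15 alternatives). The window from 100000001 had no value without mPGK-A or without mPGK-F, as either left fewer than 5 integrations. Its dependence on these pools could therefore not be checked.

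The other 3 low windows were less stable. The window from 62000001 to 64000000 differed by -1.60 ± 0.56 (limma, adjusted p = 0.049) and lost its call in 14 of 15 alternatives, with adjusted p-values up to 0.26; without mPGK-A, mPGK-C, mPGK-D, mPGK-E or mPGK-F they ran from 0.051 to 0.22. Its 14 integrations ranged from -8.93 to 3.61, and the pool means were 0.69 in mPGK-B and -1.95 to -2.55 in the other three pools present. The window from 8000001 to 10000000 differed by -1.58 ± 0.52 (limma, adjusted p = 0.034), with all 6 pool means below 0. Its mean in mPGK-D was -5.70, from 2 integrations, and the others lay between -1.58 and -0.42; without mPGK-D the difference was -1.09 (adjusted p = 0.13), and leaving out mPGK-B, mPGK-E or mPGK-F in turn gave an adjusted p of 0.051 to 0.061. The window from 18000001 to 20000000 had 10 integrations from 4 pools and differed by -2.17 ± 0.67 (limma, adjusted p = 0.024). It lost its call without mPGK-C (adjusted p = 0.082) or mPGK-F (adjusted p = 0.14).

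Runs of consecutive integrations on the same side of their pool medians were listed from 6 integrations on. They were chosen by their levels and carry no test. There were 20 runs above (174 integrations) and 17 below (163 integrations), holding 38.1% of all reporters of the chromosome. On the other chromosomes without Y this share was 26.9% to 39.9%, with a median of 34.3%, and chromosome 8 was 5th of 20. The runs above were compact, with a median span of 390 kb, and the runs below were long, with a median span of 1517 kb. This contrast was not particular to chromosome 8. On the other autosomes the median spans were 167 to 491 kb above and 1102 to 2211 kb below. All 17 runs below and 18 of the 20 above drew on at least 4 pools; the exceptions were a run of 6 above at 86580936 to 86781598, with 5 from mPGK-C and 1 from mPGK-F, and a run of 6 above at 12479639 to 12548537, from 3 pools.

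The longest run below held 24 integrations from 99334242 to 106718036, over 7.38 Mb. They came from all pools: 3 from mPGK-A, 2 from mPGK-B, 7 from mPGK-C, 5 from mPGK-D, 2 from mPGK-E and 5 from mPGK-F. Their mean was -3.35 ± 2.08 (SD over integrations), with 7 over 16-fold below and 21 called below. The weakest members of the run lay at -0.20 (mPGK-D, 106296841) and -0.91 (mPGK-F, 101373435), while the integrations next to the run lay at 0.57 on the left, 58.7 kb away, and 0.25 on the right, 157 kb away. The median RNA count in the run was 71 reads at a median of 1768 DNA reads. A reporter of mPGK-C at 105487256 had no RNA read against 444 and 629 DNA reads; 3 RNA reads over both replicates, the floor used for a count of 0, puts it at least 130-fold below the pool median.

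The next-longest low runs had higher means. A run of 20 at 6915261 to 9930762, with members from all pools, averaged -2.17 ± 1.66, and 14 were called below. A run of 12 at 93479408 to 95179783 averaged -1.50 ± 1.35, with 5 of its members from mPGK-D. Runs of 11 at 35171843 to 36107813 and of 10 at 117047715 to 118747005 averaged -1.57 ± 1.10 and -2.58 ± 1.91.

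A shorter run was deeper. At 60613774 to 61782590, 6 consecutive integrations from 5 pools averaged -4.79 ± 1.54, and 5 were over 16-fold below. The levels were -1.94 (mPGK-C), -4.44 (mPGK-F), -5.84 (mPGK-D), -6.13 (mPGK-E), -4.76 (mPGK-C) and -5.61 (mPGK-A, with no RNA read) in order along the chromosome. Apart from the first, none lay above -4.44, and all 6 were called below. The reporter with most DNA in it, of mPGK-C at 61387668, had 8843 and 8942 DNA reads but 78 and 180 RNA reads in the 2 replicates. The neighbours outside were high, at 1.84 (mPGK-D, 60245090) and 3.61 (mPGK-C, 62091248). This run is not among the 5 longest and was named after its values were seen.

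The longest run above held 18 integrations at 121611065 to 123313203, over 1.70 Mb, from 5 pools, with none from mPGK-A. Their mean was 2.03 ± 1.42 (SD), and 13 were called above. The integrations on either side lay at -2.26 and -3.30, the right one 56.7 kb away. Runs of 13 at 71552723 to 72444759 (1.67 ± 0.97) and of 12 at 72655702 to 74183137 (2.28 ± 1.42) followed each other. Runs of 10 at 87371505 to 88002079 and at 126365945 to 127387782 averaged 1.82 ± 1.48 and 1.43 ± 0.88.

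The highest reporters stood in small clusters. At 91526556 to 91590441, 8 integrations of 5 pools within 63.9 kb averaged 3.92 ± 1.69, and 5 were over 16-fold above. The mPGK-A reporter at 91569147 stood at 6.47 and 6.27 in the 2 replicates (454 and 660 DNA reads, 13844 and 17290 RNA reads), 82.6-fold above the pool median (edgeR, adjusted p = 2.46e-31). A reporter of mPGK-D at 91530937, with 5.42 and 5.55, ranked 5th on the chromosome, whereas that of mPGK-E at 91526931, inside the same cluster, was at 0.47 and 1.04. Reporters outside the cluster at 91492744 and 91510238 lay at -0.29 (mPGK-F) and -0.37 (mPGK-A) and were not called.

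An isolated high cluster stood at 44374478 to 44417111. In order of position, its 4 members were at 4.61 (mPGK-B), 5.56 (mPGK-F), 6.14 (mPGK-E) and 4.31 (mPGK-B), so all were over 16-fold above in 3 pools. The replicates of each differed by at most 0.22, and mPGK-E at 44416503 and mPGK-F at 44410412 ranked 2nd and 4th on the chromosome (edgeR, adjusted p = 1.86e-08 and 6.42e-07). No other integration was listed for 589 kb on the left and 961 kb on the right. Across these empty stretches the nearest reporters were low, at -3.53 (mPGK-E, 43785435) and -7.65 (mPGK-E, 45378508, 5 RNA reads in all).

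The remaining reporter among the 5 highest was that of mPGK-D at 74814674, at 5.90 and 5.26 (edgeR, adjusted p = 6.19e-07). All 5 others within 100 kb of it were high too, at 3.34 to 4.47, from 3 pools.

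The lowest reporters were set by few RNA reads. Of the 5 lowest with at least 10 RNA reads, each had all its reads in 1 replicate and none in the other. The lowest, of mPGK-F at 80489004, had 5370 and 4833 DNA reads but 10 and 0 RNA reads, and stood at -7.63 and -11.84 (edgeR log2 difference -8.58, adjusted p = 4.36e-06). That of mPGK-F at 67535951 had 13 and 0 RNA reads (mean level -7.68), those of mPGK-D at 12105343 and 129791129 had 0 and 10 (-7.23) and 0 and 15 (-6.56), and that of mPGK-A at 37182921 had 12 and 0 (-6.50). The last was 6.83 kb from another mPGK-A reporter at 1.79, which was called above.

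Of the 7 integrations without RNA reads, that of mPGK-C at 62684608 had most DNA, 531 and 852 reads, and lay at least 167-fold below its pool median at the floor of 3 RNA reads. No other integration lay within 100 kb of it. The reporter of mPGK-C at 18589858, with 137 and 487 DNA reads, lay at least 75.4-fold below. Of the 7, 4 were from mPGK-C, 2 from mPGK-D and 1 from mPGK-A.

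Domains were drawn as stretches in which the median of 9 consecutive integrations stayed above 0, or at or below 0. There were 37 of each kind, which follows from the way they were drawn, since the kinds alternate along the chromosome. Those above held 432 integrations in a summed 34.9 Mb, with a median span of 375 kb, and those below held 452 in 82.1 Mb, with a median span of 1376 kb. The similar numbers of reporters in high and low domains follow largely from centring the levels on the pool median. The low domains covered 2.35 times the length of the high ones. Spans over 1 Mb were reached by 10 domains above and 21 below.

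The widest domain above ran from 121611065 to 128266141 (6.66 Mb, 62 integrations of 6 pools, mean 1.19), with 83.9% of its members above their pool median. That from 71442499 to 75203987 (3.76 Mb, 39 integrations of 6 pools) had the higher mean, 1.87. The widest below were 14604165 to 23088942 (8.48 Mb, 26 integrations, mean -1.70), 98690528 to 106875291 (8.18 Mb, 28 integrations, mean -3.03) and 3564777 to 11385614 (7.82 Mb, 42 integrations, mean -1.49), each with all 6 pools. A domain of 3 integrations above, spanning 3.85 Mb from 55605919, had a mean of -1.97 and took its sign from neighbours in the running median. It was not the only such case. The 3 integrations of a domain above at 13257450 to 13496353 averaged -1.06. A single integration at 13205217, at 3.89, formed a domain below with a span of 0. The numbers of domains thus include short stretches whose own members lay on the other side. The number of domains of each kind followed the width of the median: 56 with 5 integrations and 23 with 15.

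Gaps of at least 1 Mb without integration numbered 9 and covered 12.7% of the span, where the ends of the chromosome beyond the first and last integration were not counted. They were 1.02% of the intervals between neighbours, against 1.39% in the rest of the genome, and the median interval was 67.0 kb, against 64.7 kb. The widest ran from 19471747 to 22959585 (3.49 Mb) and from 55605919 to 59029197 (3.42 Mb). The next were 1.63 Mb at 52966869, 1.52 Mb at 101719995, 1.34 Mb at 91850029, 1.32 Mb at 5495733, 1.28 Mb at 84015486, 1.15 Mb at 75815587 and 1.14 Mb at 16748248. The tenth widest, 961 kb, lay to the right of the high cluster at 44417111.

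Reporters at the rims of these gaps were mostly low. The 18 flanking integrations averaged -1.10 ± 1.83 (SD), against -0.12 ± 2.48 for the other 866, and 12 lay below and 6 above their pool median. A rim borders an empty stretch, so by definition it tends to have few neighbours. On the whole chromosome, integrations with no other within 100 kb averaged -1.51 ± 2.36, and those with 1 to 2 averaged -0.40 ± 2.28. Rims were not compared with sites of a like local number. Called below were 10 and called above 3 of the 18, where 34.2% and 37.3% of all chromosome 8 integrations were. They ranged from -5.04 (mPGK-F, right of the second widest gap) to 1.76 (mPGK-A, 54596074), and the 2 rims of a gap could differ: that second gap had 1.09 (mPGK-A) on its left. Both rims of the widest gap were from mPGK-A, at -2.28 and -1.45. The flanking integrations came from 5 pools. These values were not tested, since integrations of 1 pool are not replicates. The 9 gaps are gaps of the pooled map: single pools had 30 (mPGK-B) to 50 (mPGK-F) gaps of at least 1 Mb, and without mPGK-C or mPGK-F the pooled map had 16 or 15.

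**Figure D3:**
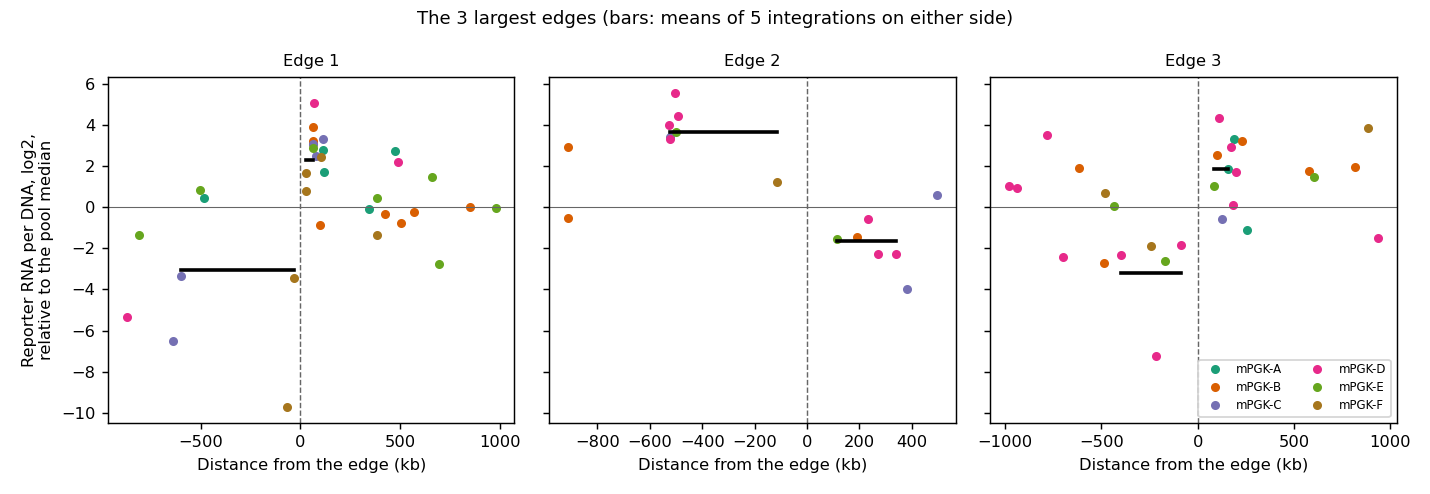
Level (log2, relative to the pool median; points coloured by pool) of all integrations within 1 Mb of the 3 largest edges, against the distance from the edge in kb. Bars are the means of the 5 integrations on either side; in the first panel they are -3.04 and 2.30, in the second 3.66 and -1.62, and in the third -3.17 and 1.85.

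Edges were the boundaries where the means of the 5 integrations on either side differed most, among 423 boundaries with all 10 within 1 Mb. The largest lay between 80528152 and 80587309, 59.2 kb apart, with means of -3.04 on the left and 2.30 on the right (40.2-fold). Both rims were mPGK-F reporters, at -3.42 and 0.78. The left side contained the lowest reporter of the chromosome, together with 1 at 0.84 (mPGK-E), so the ranges overlapped. That lowest reporter stood at -9.73, from 10 and 0 RNA reads. The left mean, and with it the rank of this edge, leaned on this 1 level, which the pseudocount sets. Edges were not ranked without it. Right of it a run of 9 integrations from 5 pools, all called above, was packed into 47.8 kb and averaged 2.92 ± 1.24. Of these, 3 of different pools lay within 1749 bp: 3.07 (mPGK-C, 80621020), 2.90 (mPGK-E, 80621730) and 3.07 (mPGK-B, 80622769).

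At the second edge, between 75203987 and 75432858, the left side averaged 3.66 and the right side -1.62 (38.9-fold), and the ranges did not overlap (1.24 to 5.58 and -2.27 to -0.55). The left 5 included 3 reporters of mPGK-D and the right 5 also included 3 of mPGK-D, so a single pool showed the step: 3.34, 5.58 and 4.47 on the left, -0.55, -2.27 and -2.27 on the right. The third edge, between 12234302 and 12407304, parted a left mean of -3.17 from a right mean of 1.85 (32.6-fold) without overlap. Its left side included the mPGK-D reporter at -7.23, from 0 and 10 RNA reads. The others were smaller, at 91571093 to 91590441 (4.56 and 0.50) and at 114453685 to 114474442 (2.43 and -1.49). Edges were ranked by the difference itself, so no test was made.

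Levels followed the local number of integrations, counted from positions alone. Integrations with no other within 100 kb averaged -1.51 ± 2.36 (SD, 179 integrations), those with 1 to 2 averaged -0.40 ± 2.28 (329), those with 3 to 5 averaged 0.46 ± 2.38 (290), and those with 6 or more averaged 1.71 ± 1.85 (86). In the rest of the genome the same classes averaged -1.36, -0.46, 0.45 and 1.19. On chromosome 8, 15.6% of isolated reporters were over 16-fold below and none over 16-fold above, and 10.5% of those with 6 or more were over 16-fold above and none over 16-fold below.

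Split at the median of 2 others within 100 kb, the 376 crowded integrations were set against the 508 sparse ones in each pool. The crowded averaged 0.71 in mPGK-A, 0.89 in mPGK-B, 1.03 in mPGK-C, 0.75 in mPGK-D, 0.54 in mPGK-E and 0.58 in mPGK-F. The sparse averaged -0.57 in mPGK-A, -0.62 in mPGK-B, -1.04 in mPGK-C, -0.91 in mPGK-D, -0.73 in mPGK-E and -0.82 in mPGK-F. The pool means of the crowded and the sparse did not overlap, and crowded minus sparse was 1.53 ± 0.30 (SD, n = 6 pools), positive in 6 of 6 pools. Single integrations did overlap: 23.1% of the crowded were called below and 27.0% of the sparse were called above. The exact sign-flip permutation p was 0.031, the smallest possible, and 0.22 after adjustment over 7 comparisons, above the threshold of 0.05. A limma fit over 20 chromosomes, added after the data were seen, gave 1.53 ± 0.14 (SE) for chromosome 8 (adjusted p = 4.5e-08). The same difference was 0.63 to 1.66 on the other 19 chromosomes, with a median of 1.36, and 4 of them exceeded chromosome 8. Crowded integrations had a median of 1992 DNA reads and sparse ones a median of 1741; the part of this depth gap in the difference was not tested. Over the 63 windows of 2 Mb with integrations, the number of integrations and the mean level had a Pearson correlation of 0.54 and a Spearman correlation of 0.60, where neighbouring windows share domains and each window's mean and number share the same integrations.

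**Figure D4:**
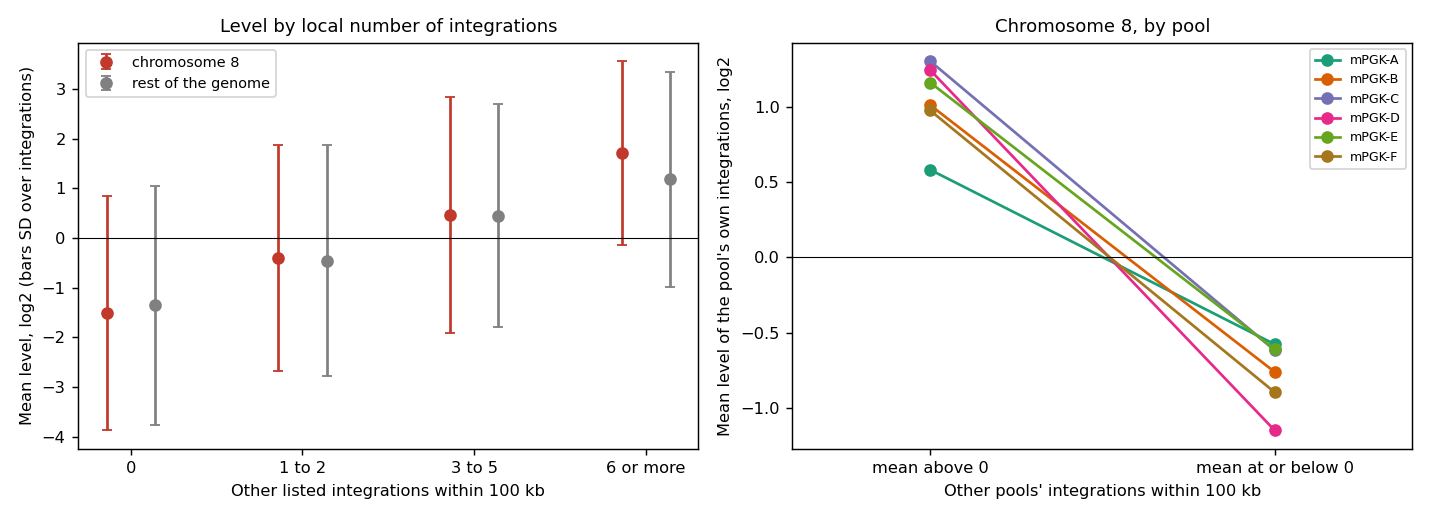
Left, mean level (log2; bars are SD over integrations) by the number of other integrations within 100 kb, for chromosome 8 (red) and the rest of the genome (grey), from -1.51 to 1.71 on chromosome 8. Right, mean level of each pool's own chromosome 8 integrations where the other pools' integrations within 100 kb averaged above 0, and where they averaged at or below 0; each line is a pool, and all 6 lines slope down.

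The pools gave partly similar landscapes. Of the 884 integrations, 671 had an integration of another pool within 100 kb. Of these 671, 69.4% lay on the same side of 0 as the mean of those neighbours, against 63.8% in the rest of the genome. Where those neighbours averaged above 0, the pool's own reporters averaged 0.58 (mPGK-A), 1.01 (mPGK-B), 1.30 (mPGK-C), 1.24 (mPGK-D), 1.16 (mPGK-E) and 0.98 (mPGK-F). Where they averaged at or below 0, the values were -0.58 (mPGK-A), -0.76 (mPGK-B), -0.62 (mPGK-C), -1.15 (mPGK-D), -0.61 (mPGK-E) and -0.89 (mPGK-F). The 2 sets of pool means did not overlap, and the difference was 1.81 ± 0.40 (SD, 6 pools), from 1.16 (mPGK-A) to 2.39 (mPGK-D), against 1.43 in the rest of the genome. The 6 differences share integrations, because each pool serves as a neighbour of the others, so no test was made of them or of the distance from the rest.

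**Figure D5:**
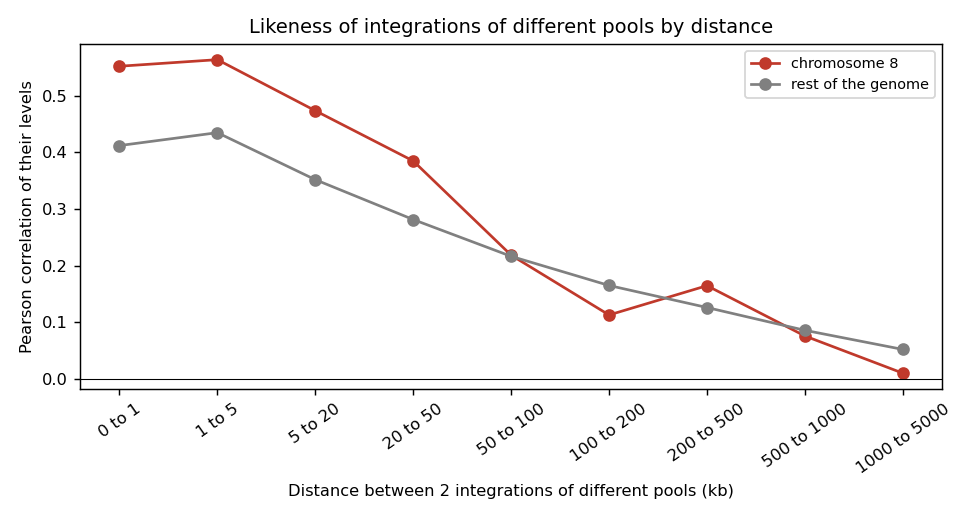
Pearson correlation between the levels of 2 integrations of different pools, by the distance between them in kb, for chromosome 8 (red) and the rest of the genome (grey). On chromosome 8 it lay at 0.55 for pairs within 1 kb, 0.22 for the class ending at 100 kb and 0.01 for the class ending at 5000 kb.

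Likeness faded with distance. Over pairs of different pools on chromosome 8, the correlation was 0.55 within 1 kb (29 pairs), 0.56 (68 pairs) between 1 and 5 kb, 0.47 (148) between 5 and 20 kb, 0.38 (276) between 20 and 50 kb and 0.22 (414) between 50 and 100 kb. Beyond, it was 0.11 up to 200 kb, 0.16 up to 500 kb, 0.08 up to 1000 kb and 0.01 up to 5000 kb. In the rest of the genome the first 3 classes had 0.41, 0.43 and 0.35, and the last had 0.05. Pairs share integrations, so these correlations are descriptions, and the gap between chromosome 8 and the rest was not tested.

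Closeness did not fix the level. Among the 29 pairs of different pools within 1 kb, 19 lay on the same side of their medians, 23 differed by more than 2-fold and 1 by more than 16-fold. In the most divergent, 625 bp apart, mPGK-C at 63793155 stood at 1.25 and 0.69 in its replicates and mPGK-F at 63793780 at -3.35 and -2.86, a 16.9-fold difference. The next were mPGK-D and mPGK-E at 91526556 and 91526931, 375 bp apart (4.05 and 0.75; 9.84-fold), and mPGK-F and mPGK-A at 25469352 and 25469587, 235 bp apart (2.00 and -1.25; 9.50-fold). The closest-matched pair, mPGK-B at 109416615 and mPGK-D at 109416866, was 251 bp apart at 0.45 and 0.40. Pairs at 80621020 and 80621730 (mPGK-C and mPGK-E; 3.07 and 2.90) and at 86126007 and 86126234 (mPGK-A and mPGK-C; 2.16 and 1.99) each differed by 1.13-fold. The divergent pairs were on opposite strands, and so was the matched pair at 80621020; the other two matched pairs were on the same strand. These pairs were picked by their difference and carry no test.

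Levels by strand and by position along the arm did not pass the adjusted test. The 424 integrations on the plus strand averaged -0.24 ± 0.27 and the 460 on the minus strand -0.04 ± 0.31 (SD, n = 6 pools); the difference was -0.20 ± 0.52 and was negative in 4 of 6 pools (exact permutation p = 0.38; adjusted p = 0.57). The 291 integrations from 3221715 to 45854018 averaged -0.37 ± 0.40, and the 322 from 88486324 to 131118628 averaged -0.02 ± 0.37. The difference was -0.35 ± 0.70 and was negative in 4 of 6 pools (exact permutation p = 0.25; adjusted p = 0.57). Split at the middle of the span instead, the lower minus the upper part was -0.67 ± 0.61 (adjusted p = 0.11, exact permutation test). The unadjusted exact permutation p of this split was the smallest possible, 0.031, so the difference was negative in all 6 pools. The adjusted test cannot pass a lone difference, even one of the same sign in all pools, so it does not decide this one.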

How the data were processed

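Barcoded mPGK reporters were read by TRIP in 6 pools of EBRTcH3 cells, with 2 technical replicates each. The 72 libraries form 18 groups of 4: RNA, DNA and mapping libraries of each pool. Each barcode in the table the authors deposited has raw counts (DNA and RNA, per replicate), a pool, chromosome, position and strand. The submitters' processing notes name Bowtie2 2.0 and the build mm9. The merging of the 2 PCRs, the barcode filters and the first base of the position count (0 or 1, which shifts a site by 1 base) are not given in the sources used here. Totals are sums over listed barcodes. A genome or annotation of mm9 was not used here, so no genes are named at the sites.

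The level is the log2 ratio of RNA share to DNA share in a pool and replicate, with 0.5 RNA reads added, averaged over replicates, minus the pool median. The pseudocount sets the level of reporters with few RNA reads. Counts were tested with edgeR 4.0.16 (R 4.3.3; quasi-likelihood, TMM, then shifted to a median ratio of 0 per pool; filterByExpr removed 0 barcodes; Benjamini-Hochberg over all barcodes of a pool, threshold 0.05). Unshifted medians lay between -0.27 and -0.23. Per the labels, RNA and DNA with the same replicate number come from the same culture, and their deviations correlated by -0.0021 to 0.058. Windows were tested with limma 3.58.1 on pool means weighted by integrations, adjusted over the genome. Differences over pools used an exact sign-flip permutation test (64 patterns, two-sided). Other values came from Python 3.11.15, numpy 2.4.6 and pandas 2.3.3. The procedures were tested on simulated data.

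Named items are every called window, the 5 highest and 5 lowest integrations (at least 10 RNA reads), 3 without RNA and most DNA, the 5 longest runs each way, the 10 widest gaps, the 5 largest edges, and the 3 most and 3 least divergent pairs within 1 kb; others are named as their neighbours. Members and lists were chosen with earlier results of these data known. Alternatives changed the pseudocount, filters, scaling, count model (DESeq2 1.42.0), windows, distances and cut-offs, or left out a replicate or pool.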

Additional observations from a re-analysis of the deposited data

Results flagged for a closer look

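In 21 sets of pool values, 1 pool stood apart by its gap to the nearest other, divided by the range; chance flags about 1 in 20 sets. In the window from 8000001 to 10000000, mPGK-D averaged -5.70, from 2 integrations, and the other five pools lay between -1.58 and -0.42. The gap was 0.78 of the range of the 6 pools, and the window was not called without mPGK-D (limma, adjusted p = 0.13).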

How the results depend on the processing

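With 6 pools and 7 comparisons, a lone difference cannot pass the adjusted exact test, so that test says nothing about stability; values without a pool carry no test. The difference in the share below turned sign at 8-fold in place of 16-fold (-0.65 percentage points) and without mPGK-D (-0.16). The difference in the share above was 1.80 ± 1.66 percentage points at 8-fold. The difference in SD was 0.070 without replicate 1, -0.020 without replicate 2, -0.0098 without mPGK-C and -0.019 without mPGK-D. The difference along the arm was -0.67 with 2 parts in place of 3. The crowded minus sparse difference was 1.52 to 1.54 without a replicate. It was 1.53 under limma over 20 chromosomes, added after the data were seen, where it passed. Without mPGK-B it was 1.02, but neighbours were then recounted and the split redrawn without that pool's integrations. Under the main split, mPGK-B itself differed by 1.51, against a mean of 1.53 over the 6 pools. Without a replicate, the windows called above stayed at 6 and those below were 4 to 5. Windows of 4 Mb gave 3 above, and no weights gave 2 above and 3 below. Windows called below were 2 without mPGK-F, 2 at 1 Mb and 3 with at least 10 integrations per window. Of 176 values of named windows, 42 lost the call and none turned sign; the causes were not tested. With RNA and DNA of a culture as a replicate block, edgeR called 330 above and 292 below, 325 and 288 of them also called without the block. The other count models gave 298 to 330 above and 301 to 347 below. The 632 called integrations had the same sign with either replicate alone, but the calls drew on these same 2 replicates. Runs of at least 6 below numbered 17, and 10 without mPGK-B. Reporters under 100 RNA reads in a replicate had a single-replicate error of 1.26 log2 units, so the depth of RNA limits the low end. Levels are relative to listed barcodes and cannot show a change common to a pool.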
